A study of Mus musculus with 18 samples.

Results

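The colon of mice lacking Lao1 was compared after 24 hours of dextran sulfate sodium (DSS) and on plain water. The comparison, chosen with earlier results of these data known, used 6 of the series' 18 RNA-seq libraries, picked by their labels. They were 3 from LAO1KO mice that drank 2.5% DSS and 3 from LAO1KO mice that drank sterile water. All 6 came from colon tissue of male C57BL/6J mice aged 8 weeks and kept germ-free, so without microbes, and all 6 carried the genotype Lao1-/-. The other 12 libraries came from wild-type (WT) and Lao1-/- Il4i1-/- (DKO) mice under the same pair of drinking conditions and of the same age, sex and germ-free state. They entered the fit, where they helped to set the shared estimate of the spread, and they served to show where LAO1KO differed. The labels call the 3 libraries of each group biological replicates and give no hour of collection, no cage and no account of how the Lao1 allele was made. The comparison asks which transcripts differ in the colon after 1 day of DSS when Lao1 is absent.

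Lao1 encodes a secreted L-amino acid oxidase, an enzyme that removes the amino group of amino acids and releases hydrogen peroxide, and Il4i1 encodes a related oxidase of immune cells. DSS is a sulfated sugar polymer that reaches the colon with drinking water, damages the mucus and the surface epithelium, and with longer exposure gives colitis. The colonic surface is made of absorptive colonocytes, which take up salt, water and ions under the control of steroid hormones, and of mucus-making goblet cells. Most of these cells carry a circadian clock. In it ARNTL pairs with CLOCK or NPAS2 and binds E-boxes in the genes of its own repressors (Per, Cry, Nr1d1) and of output factors such as Dbp, while ROR and REV-ERB proteins compete for ROR elements in genes such as Arntl, so that the Arntl and Dbp groups peak at opposite times of day.

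The 6 libraries held 26003174 to 36553193 counts each, and 18848 of 45777 genes passed the filter on low counts and were tested. Lao1 (GRCm38, chromosome 4, 118961967 to 118968910) had 5, 5 and 0 counts in water replicates A, B and C and 9, 10 and 2 counts in DSS replicates A, B and C. The WT libraries, in the same order, had 0, 0 and 2 counts on water and 0, 4 and 0 counts under DSS. Low Lao1 counts were therefore not particular to the knockout. At such counts, of which a count of 0 allows up to 3, Lao1 could not check the genotype label. Il4i1, summed with the gene model Il4i1b, was at 1.14, 0.686 and 1.59 CPM (counts scaled to a common library size) on water and 1.85, 1.73 and 0.491 CPM under DSS, with overlap. The defining colonic genes were present in all 6 libraries: the mucin gene Muc2 lay between 3420 and 4833 CPM, and the colonocyte carbonic anhydrase gene Car1 between 5077 and 10412 CPM. Several libraries stood apart. The summed level of 18 absorptive colonocyte genes was 35599, 23654 and 25556 CPM in water replicates A, B and C and 22096, 19022 and 27257 CPM in DSS replicates A, B and C, highest in water replicate A. Ribosomal Rn18s-rs5 made up 0.423% to 0.851% of counts in the water libraries and 0.970% to 5.54% in the DSS libraries, highest in DSS replicates B and C, in libraries made with a stranded mRNA kit.

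**Figure D1:**
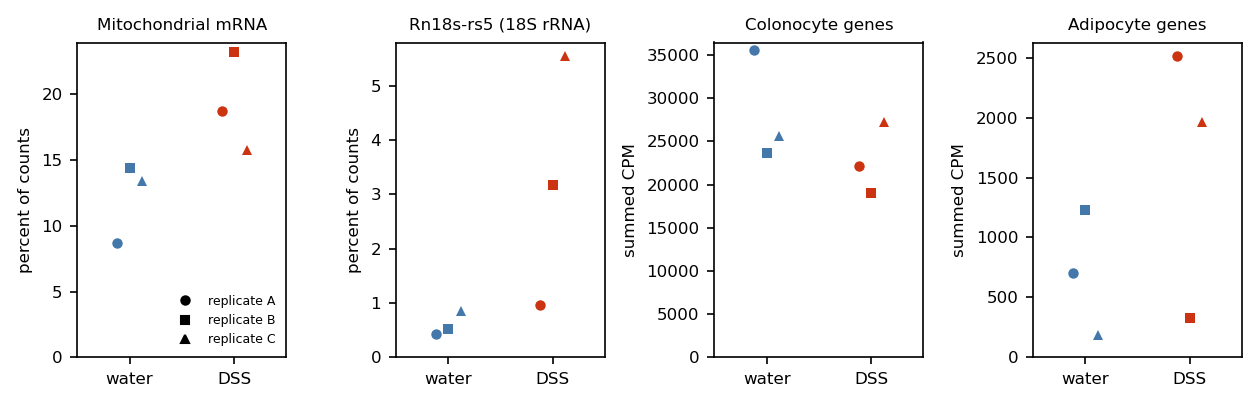
Values of the 6 LAO1KO libraries, with water in blue, DSS in red and the marker shape giving the replicate: percent of counts in 13 mitochondrially encoded mRNAs, percent of counts in Rn18s-rs5, and summed CPM of 18 absorptive colonocyte and 11 adipocyte genes. Mitochondrial mRNA and Rn18s-rs5 were higher in the 3 DSS libraries with no overlap, colonocyte genes were highest in water replicate A, and adipocyte genes were spread widely within both groups.

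A small set of genes was lower in LAO1KO colon under DSS, among them the steroid-induced kinase gene Sgk1, the clock gene Arntl, the magnesium channel gene Trpm6 and the P450 gene Cyp2c55. By edgeR's quasi-likelihood test 37 of 18848 genes (0.196%) passed an adjusted p of 0.05, of which 36 were lower (0.191%) and 1 was higher (0.00531%). One of the lower genes is a gene model without a proper symbol, so 36 genes are named. Unadjusted p-values under 0.05 were found for 1683 lower genes (8.93%) and 1253 higher genes (6.65%). The number that passed rested on single libraries. Leaving out the water libraries A, B and C in turn gave 84, 9 and 6 genes, and leaving out the DSS libraries A, B and C gave 3, 1 and 346. No sign changed among the 36 named genes in any of these fits, and none of the 36 passed all 6 of them, while Arntl and Npas2 passed 5 and failed only without DSS replicate B. Libraries of the other genotypes, which share the estimate of the spread, moved the count too: it was 98 without WT water replicate B, 72 without WT DSS replicate B, 66 without WT DSS replicate C, 24 without DKO water replicate A, 63 without DKO DSS replicate B and 12 without DKO DSS replicate C. With the 6 LAO1KO libraries alone in the fit no gene passed, and 2163 genes had an unadjusted p under 0.05.

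**Figure D2:**
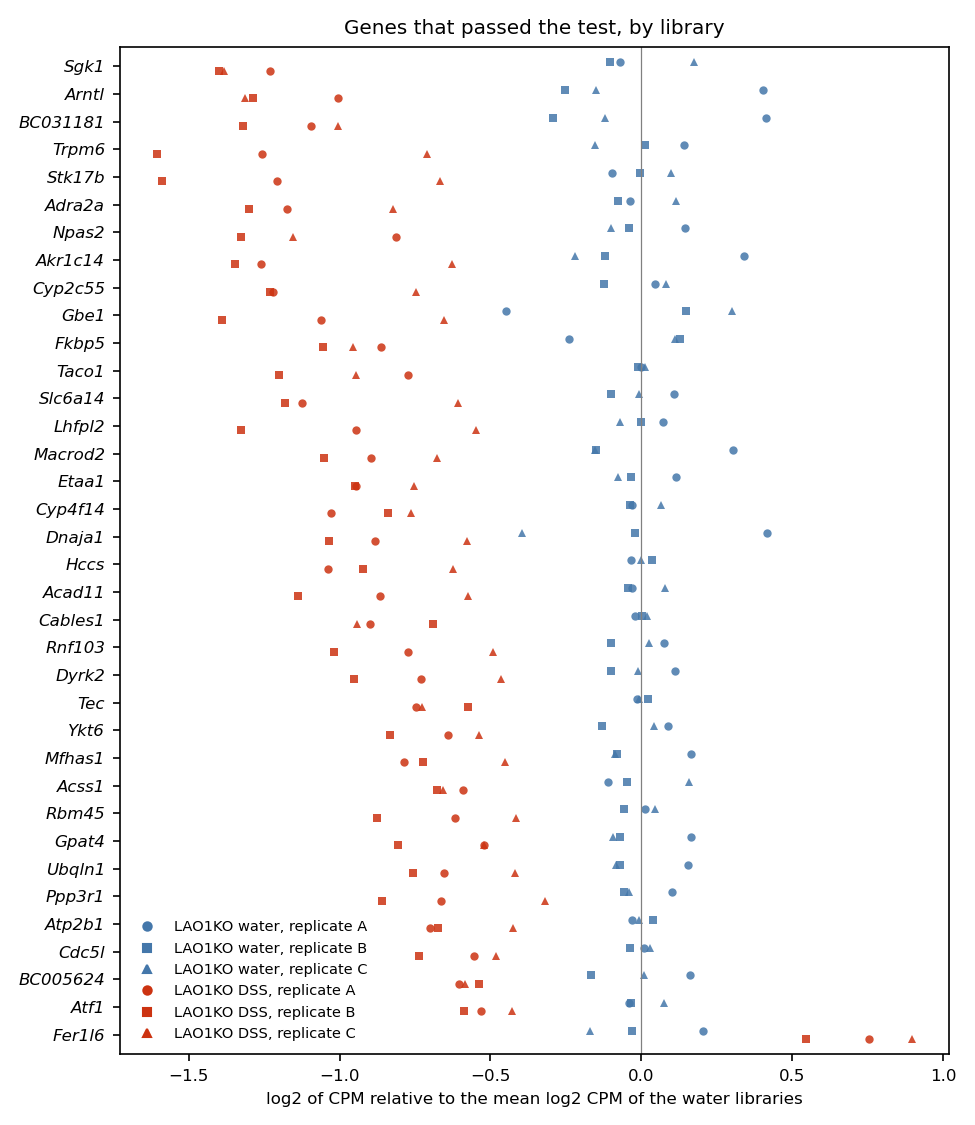
The 36 named genes that passed, by library: the x axis gives log2 CPM minus the mean log2 CPM of the 3 water libraries, with water in blue, DSS in red and the marker shape giving the replicate. In all 36 genes the 3 DSS libraries lie apart from the 3 water libraries, 35 below and Fer1l6 above, and DSS replicate C is often the DSS library nearest to water.

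Promoter sequences are shown first for 2 groups of genes, clock and heat shock, that act through known short motifs. Windows of 300 bases, from 250 before to 50 after a transcription start, came from RefSeq on GRCm38.p6, and 16 of 19 clock genes and 15 of 19 heat shock genes had at least 1. The E-box was searched as CACGTG, which reads the same on both strands, the ROR element as TAGGTCA on both strands, and a paired heat shock unit as GAANNTTC or TTCNNGAA, which also read the same on both strands and may overlap. An E-box was in 6 of 21 clock windows (28.6%), 3 of 20 heat shock windows (15%) and 7.15% of all 32851 windows. A ROR element was in 2 of 21 clock windows (9.52%), 0 of 20 heat shock windows and 2.61% of all windows. A heat shock unit was in 11 of 20 heat shock windows (55%), 0 of 21 clock windows and 15.1% of all windows. Capitals mark the matches. Arntl is shown for its ROR element, in 1 of its 2 windows (chr7:113207261-113207560, plus strand). Ciart, a clock repressor gene, is shown for its 3 E-boxes (chr3:95882179-95882478, minus strand). Dnaja1 (chr4:40722218-40722517, plus strand) and Hsph1 (chr5:149636266-149636565, minus strand) are shown for their heat shock units. A match describes letters in a window and does not show binding.
Arntl: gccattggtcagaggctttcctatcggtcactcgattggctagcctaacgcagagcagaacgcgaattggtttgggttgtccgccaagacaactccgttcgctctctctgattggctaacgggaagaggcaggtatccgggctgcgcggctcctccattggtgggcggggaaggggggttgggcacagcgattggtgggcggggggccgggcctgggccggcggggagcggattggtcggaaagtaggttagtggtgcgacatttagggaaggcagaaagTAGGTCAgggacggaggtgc
Ciart: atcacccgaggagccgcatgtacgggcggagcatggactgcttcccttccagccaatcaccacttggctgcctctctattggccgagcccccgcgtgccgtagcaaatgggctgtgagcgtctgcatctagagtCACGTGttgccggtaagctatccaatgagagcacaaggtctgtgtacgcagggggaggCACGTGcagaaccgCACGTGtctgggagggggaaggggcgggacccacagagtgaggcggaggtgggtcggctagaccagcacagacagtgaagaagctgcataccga
Dnaja1: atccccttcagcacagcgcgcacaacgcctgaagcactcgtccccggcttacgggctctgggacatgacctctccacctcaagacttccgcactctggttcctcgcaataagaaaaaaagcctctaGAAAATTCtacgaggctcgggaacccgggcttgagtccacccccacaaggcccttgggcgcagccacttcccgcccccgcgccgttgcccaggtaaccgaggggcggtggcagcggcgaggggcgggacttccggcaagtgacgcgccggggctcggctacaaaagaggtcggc
Hsph1: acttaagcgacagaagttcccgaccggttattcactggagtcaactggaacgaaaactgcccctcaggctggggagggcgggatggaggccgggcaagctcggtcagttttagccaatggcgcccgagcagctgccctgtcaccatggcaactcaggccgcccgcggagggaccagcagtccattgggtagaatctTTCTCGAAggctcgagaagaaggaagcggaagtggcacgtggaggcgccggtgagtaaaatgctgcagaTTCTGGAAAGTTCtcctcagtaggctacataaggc

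Among clock genes, the activators Arntl and Npas2 fell, and several genes of the opposite phase lay higher without passing. Arntl (chromosome 7, 113178471 to 113314126), whose ROR element is shown above, had 41.1, 26.1 and 28.0 CPM in water replicates A, B and C and 15.5, 12.7 and 12.5 CPM in DSS replicates A, B and C. Npas2, which encodes a partner of ARNTL, had 36.1, 31.7 and 30.4 CPM in the water libraries and 18.6, 13 and 14.7 CPM in the DSS libraries, in the same order. For both genes the 3 DSS libraries were low and close together, and no DSS library reached a water library. Arntl fell by 1.22 ± 0.18 (SE) on the log2 scale (edgeR adjusted p = 0.014) and Npas2 by 1.08 ± 0.17 (adjusted p = 0.014). The third activator, Clock, was at 57.5, 66.8 and 60.0 CPM on water and 49.9, 53.5 and 60.6 CPM under DSS, and its groups overlapped.

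The output factors of the clock gave the other side. Dbp had 9.45, 35.5 and 34.0 CPM in water replicates A, B and C and 71.9, 88.5 and 80.9 CPM under DSS. Hlf had 3.89, 3.64 and 2.63 CPM on water and 8.09, 8.96 and 8.83 CPM under DSS. For both, each DSS library was above each water library, but for Dbp the lowest value by far was water replicate A. Hlf, with a log2 difference of 1.34 ± 0.27, just missed the threshold (edgeR adjusted p = 0.0502), and Dbp had a difference of 1.61 ± 0.36 (adjusted p = 0.0783). Bhlhe41, a clock repressor gene named here after its values were seen, was at 0.880, 0.845 and 0.634 CPM on water and 3.64, 3.78 and 4.09 CPM under DSS, a difference of 2.28 ± 0.55 (adjusted p = 0.0841). Its 3 DSS libraries were nearly equal and lay well above the 3 water libraries.

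The gene lists here and below were chosen with earlier results of these data known, so their counts are not independent of the data. Of the 19 clock genes, 2 passed, both lower. In 7 the DSS libraries lay wholly above the water libraries (9.3% of all tested genes did) and in 4 wholly below (10.1% of all tested genes). The 7 were Dbp, Hlf, Tef, Bhlhe41, Ciart, Per2 and Per3, and the 4 were Arntl, Npas2, the repressor Cry1 and Nfil3, a repressor that opposes Dbp. The repressor gene Per3 ran at 8.88, 32.5 and 35.8 CPM on water and 51.7, 69.5 and 49.3 CPM under DSS, and Ciart, with the 3 E-boxes shown, at 1.16, 6.26 and 6.60 CPM on water and 10.5, 13.9 and 8.34 CPM under DSS. Tef, an output factor like Dbp, had 33.1, 81.1 and 87.5 CPM on water and 105, 129 and 113 CPM under DSS. In these 3 genes water replicate A was again the lowest library, well below water replicates B and C. Beside Ciart, the clock genes with an E-box in a window were Bhlhe41, Tef, Cry1 and Per1. They did not go 1 way: Bhlhe41 and Tef lay wholly higher, Cry1 lay wholly lower and Per1 overlapped (-0.016 ± 0.26). The median log2 difference of the list was 0.33, against 0.02 over all tested genes, and 0.11 without water replicate A.

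**Figure D3:**
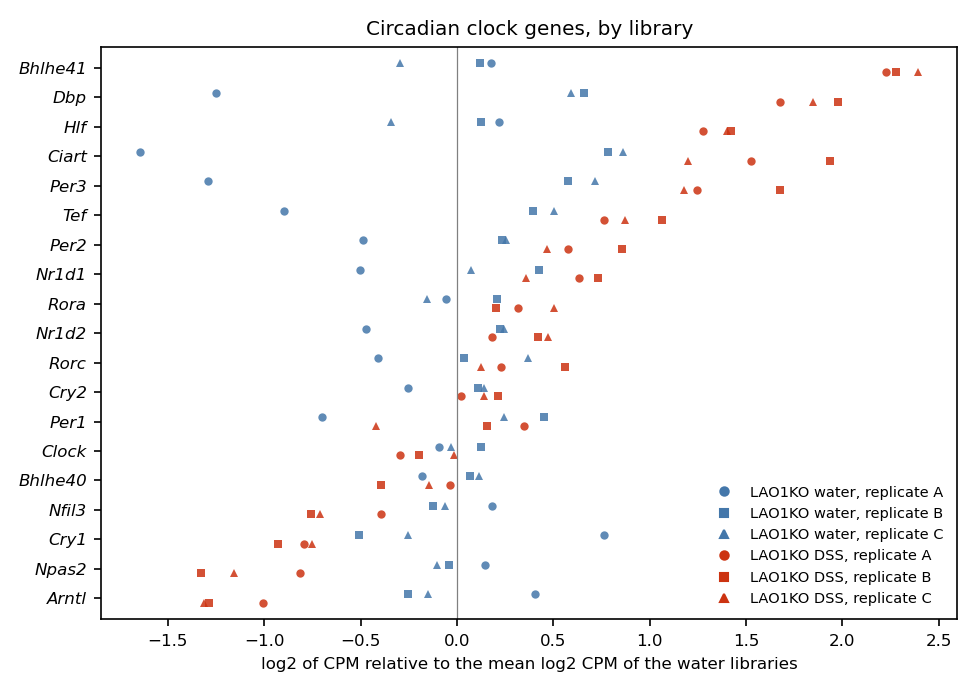
The 19 clock genes by library, as log2 CPM minus the mean log2 CPM of the 3 water libraries, ordered by their fitted difference, with water in blue and DSS in red. Arntl and Npas2 sit at the bottom with the DSS libraries below water, Bhlhe41, Dbp and Hlf at the top with them above, and water replicate A lies apart from water replicates B and C in Ciart, Dbp, Per3, Tef and Cry1.

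A clock index put these genes together for each library, as the mean log2 CPM of 9 genes (Dbp, Tef, Hlf, Per1, Per2, Per3, Nr1d1, Nr1d2 and Ciart) minus that of Arntl, Npas2 and Clock. It was -1.81, -0.40 and -0.44 in water replicates A, B and C and 0.73, 1.18 and 0.75 in DSS replicates A, B and C. The DSS libraries lay above the water libraries, and water replicate A was the lowest. The difference of 1.77 had a 2-sided exact permutation p of 0.1, the smallest that 3 libraries against 3 allow, and it was 1.31 without water replicate A. The LAO1KO difference minus the WT difference was -1.16 (permutation of genotype labels within treatment, p = 0.075), and minus the DKO difference it was 0.911 (permutation p = 0.055). Neither passed, but single libraries decided this: without water replicate A the first was -1.62 (permutation p = 0.005) and the second 0.448 (p = 0.13), without DSS replicate B the first was -1.31 (p = 0.04), and without water replicates B or C the second was 1.15 (p = 0.015) or 1.13 (p = 0.02). The permutations between genotypes assume no genotype difference under either treatment, so their p-values do not measure a difference of responses alone. The hour of collection is not given in the sources used here, and its part in the clock values was not tested.

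Sgk1 and Fkbp5, which steroid hormones induce, fell under DSS. Sgk1, a kinase gene induced by glucocorticoids and aldosterone that raises sodium uptake, had 185, 181 and 219 CPM in water replicates A, B and C and 82.8, 73.5 and 74.4 CPM in DSS replicates A, B and C. Fkbp5, which encodes a co-chaperone of steroid receptors and is induced by glucocorticoids, had 209, 269.7 and 266 CPM on water and 136, 119 and 127 CPM under DSS. In both genes the 3 DSS libraries were close to each other and far from the water range. Sgk1 (chromosome 10, 21882184 to 21999903) fell by 1.34 ± 0.24 (SE) on the log2 scale (adjusted p = 0.0351), the largest decrease among the named genes that passed, and Fkbp5 by 0.96 ± 0.15 (adjusted p = 0.014).

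Of 18 tested genes of the glucocorticoid and mineralocorticoid list, these 2 passed. In 8 the DSS libraries lay wholly below the water libraries and in none wholly above, where 10.1% and 9.3% of all tested genes did, and the median log2 difference was -0.30. Among the 8 was Nr3c2, the mineralocorticoid receptor gene, at 99.1, 131 and 124 CPM on water and 75.1, 67.7 and 92.5 CPM under DSS (log2 difference -0.59 ± 0.15; adjusted p = 0.0941). The zinc finger factor gene Zbtb16, which glucocorticoids induce, was at 7.12, 18.1 and 9.86 CPM on water and 5.65, 4.74 and 2.29 CPM under DSS (-1.46 ± 0.39; adjusted p = 0.112). Both had DSS libraries below every water library, and neither passed. The glucocorticoid receptor gene Nr3c1 was at 86.7, 124 and 127 CPM on water and 83.4, 83.1 and 110.5 CPM under DSS with overlap.

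Transport and surface genes of the colonocyte were the next group. Trpm6, the apical magnesium channel gene (chromosome 19, 18730177 to 18892521), had 71.5, 65.3 and 58.3 CPM on water and 27.1, 21.3 and 39.6 CPM under DSS. Slc6a14, which encodes a broad amino acid transporter (chromosome X, 21714900 to 21742358), had 705, 611 and 650.5 CPM on water and 300.3, 289 and 429 CPM under DSS. Both were lower in each DSS library than in any water library, with DSS replicate C the nearest to water. Trpm6 fell by 1.15 ± 0.19 (adjusted p = 0.0247) and Slc6a14 by 0.95 ± 0.18 (adjusted p = 0.0427). Atp2b1, the plasma membrane calcium pump gene, fell by 0.59 ± 0.11 (adjusted p = 0.0427).

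Of 26 tested ion transport genes 1 passed, Trpm6. In this list 5 lay wholly lower under DSS (10.1% of all tested genes did) and 2 wholly higher (9.3% of all tested genes did). Only the count of those wholly higher is near its share. The median was -0.21, and -0.11 without DSS replicate B. The sodium-proton exchanger gene Slc9a2 came nearest after Trpm6, at 388, 341 and 382 CPM on water and 184, 148 and 269 CPM under DSS (-0.89 ± 0.19; adjusted p = 0.0572). The chloride channel gene Ano1 was 1 of the 2 wholly higher, at 24.3, 24.2 and 18.6 CPM on water and 38.4, 35.3 and 34.6 CPM under DSS (0.69 ± 0.30; adjusted p = 0.289). Of 18 absorptive colonocyte genes 1 passed, Cyp2c55. A negative log2 difference was found in 17 of them, and in 8991 of all 18848 tested genes. The median of the list was -0.29, or -0.46 without DSS replicate C. The membrane mucin gene Muc3 was at 3848, 3552 and 3410.0 CPM on water and 1846, 1694 and 2383 CPM under DSS (-0.87 ± 0.20; adjusted p = 0.0747), with no overlap. Not all surface genes followed: Guca2a, which encodes guanylin, was at 4576, 1863 and 1944 CPM on water and 2675, 2596 and 2586 CPM under DSS, where water replicate A alone stood above the DSS libraries. In bulk tissue fewer cells of a type and less RNA per cell cannot be told apart.

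None of 23 junction and adhesion genes passed (9 lower and 0 higher at an unadjusted p under 0.05, against 8.93% and 6.65% of all tested genes). In this list 8 lay wholly lower under DSS and none wholly higher, where 10.1% and 9.3% of all tested genes did. The median was -0.38. The smallest p belonged to Cldn12, a claudin gene, at 52.6, 49.8 and 54.4 CPM on water and 38.4, 36.1 and 42.1 CPM under DSS (-0.43 ± 0.09; adjusted p = 0.0685). Ocln, the occludin gene of tight junctions, was at 142, 111 and 112 CPM on water and 83.7, 55.4 and 103 CPM under DSS (-0.59 ± 0.18; adjusted p = 0.136), and the desmosome gene Dsc2 at 308, 201 and 202 CPM on water and 140.2, 96.9 and 168 CPM under DSS (-0.81 ± 0.23; adjusted p = 0.124). In these 3 the DSS libraries were below every water library.

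Fer1l6 was the 1 gene that rose. It encodes a ferlin, a family of membrane proteins, and belongs to the goblet cell list. It had 43.1, 36.6 and 33.3 CPM in water replicates A, B and C and 63.2, 54.6 and 69.7 CPM in DSS replicates A, B and C. The lowest DSS library, replicate B, was above the highest water library, replicate A. Fer1l6 (chromosome 15, 58510048 to 58665087) rose by 0.73 ± 0.13 (SE) on the log2 scale (adjusted p = 0.0351). Of 18 goblet cell genes, a list chosen with earlier results of these data known, it alone passed. In this list 4 lay wholly higher (Fer1l6, Bcas1, Sytl2 and Muc4) and 3 wholly lower (Muc13, Spdef and Galnt12). Of all tested genes 9.3% and 10.1% did. The median of the list was 0.20. That median was 0.45 without water replicate A, 0.33 without DSS replicate B, 0.07 without water replicate B or C and 0.06 without DSS replicate C. Bcas1 was at 77.6, 62.9 and 62.9 CPM on water and 89.8, 80.1 and 92.8 CPM under DSS (0.37 ± 0.12; adjusted p = 0.169), and Sytl2, a gene of vesicle docking, at 34.3, 43.6 and 38.6 CPM on water and 50.2, 47.4 and 49.5 CPM under DSS (0.34 ± 0.12; adjusted p = 0.199). On the lower side Muc13 was at 1445, 1505 and 1598 CPM on water and 1190, 1042 and 1314.5 CPM under DSS (-0.36 ± 0.14, edgeR adjusted p = 0.244). Spdef was at 93.6, 74.2 and 72.7 CPM on water and 66.9, 62.8 and 55.8 CPM under DSS (-0.37 ± 0.22, edgeR adjusted p = 0.417). The main goblet product genes Muc2 (4209, 4833 and 4204 CPM on water, 4483, 3420.3 and 4308 CPM under DSS) and Clca1 (1567, 870.5 and 695 CPM on water and 1458, 1016 and 1848 CPM under DSS) had overlapping groups.

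Receptor and signalling genes that fell included Adra2a, the alpha-2A adrenergic receptor gene (chromosome 19, 54045259 to 54048982). It had 81.3, 79.1 and 90.2 CPM on water and 36.9, 33.8 and 47.1 CPM under DSS. The groups were far apart, with DSS replicate C the highest of the DSS libraries. Adra2a fell by 1.09 ± 0.16 (SE; adjusted p = 0.014). Stk17b, an apoptosis-related kinase gene, had 102, 109 and 117 CPM on water and 47.4, 36.4 and 69.0 CPM under DSS and fell by 1.11 ± 0.18 (adjusted p = 0.0216). The kinase genes Tec (-0.68 ± 0.12) and Dyrk2 (-0.70 ± 0.14) fell too, as did Ppp3r1 (-0.60 ± 0.12), which encodes the regulatory subunit of calcineurin, and Mfhas1 (-0.65 ± 0.12). Their adjusted p-values lay between 0.0351 and 0.0455.

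Metabolic genes made up another share of those that fell. Cyp2c55, a cytochrome P450 of fatty acid epoxidation in the colon (chromosome 19, 39006940 to 39042690), had 906, 806 and 929 CPM on water and 377, 374 and 524 CPM under DSS. Cyp4f14, which hydroxylates leukotrienes and other lipids, had 493, 490.3 and 527 CPM on water and 246, 281 and 296 CPM under DSS. Each DSS library of both was well below the water range. Cyp2c55 fell by 1.05 ± 0.17 (adjusted p = 0.0216) and Cyp4f14 by 0.87 ± 0.13 (adjusted p = 0.014). Akr1c14, a hydroxysteroid dehydrogenase gene, had 167, 121 and 113 CPM on water and 55.1, 51.9 and 85.4 CPM under DSS and fell by 1.06 ± 0.21 (adjusted p = 0.0451), and here water replicate A was the highest library. Gbe1, the glycogen branching enzyme gene, had 29.8, 45.1 and 50.1 CPM on water and 19.5, 15.5 and 25.8 CPM under DSS and fell by 1.04 ± 0.20 (adjusted p = 0.0446), with water replicate A the lowest of the water libraries.

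The other enzyme genes that fell were Acss1 (-0.65 ± 0.10), the mitochondrial acetyl-CoA synthetase, Acad11 (-0.84 ± 0.14), an acyl-CoA dehydrogenase, Hccs (-0.85 ± 0.15), which attaches haem to cytochrome c, Taco1 (-0.96 ± 0.18), an activator of COX1 translation, and Gpat4 (-0.61 ± 0.12), which starts glycerolipid synthesis. Taco1 had 14.2, 14.1 and 14.4 CPM in the water libraries, nearly equal, and 8.34, 6.20 and 7.40 CPM under DSS. Among 19 fatty acid oxidation genes none passed (4 lower and 0 higher at an unadjusted p under 0.05, against 8.93% and 6.65% of all tested genes). The median was -0.22, or -0.09 without DSS replicate B and -0.40 without DSS replicate C. Acadm was at 271, 192 and 214 CPM on water and 148, 119.8 and 187 CPM under DSS. Of 17 hypoxia and glycolysis genes Gbe1 alone passed, 6 lay wholly lower and 1 wholly higher, where 10.1% and 9.3% of all tested genes did. The lactate dehydrogenase gene Ldha was at 1537, 971 and 1139.8 CPM on water and 672, 453 and 886 CPM under DSS (-0.86 ± 0.24; adjusted p = 0.12).

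Of 17 lipid and cholesterol synthesis genes none passed (0 lower and 7 higher at an unadjusted p under 0.05, against 8.93% and 6.65% of all tested genes). A positive log2 difference was found in 14 of them, and in 9856 of all 18848 tested genes. The median of the list was 0.44. Insig1, a sterol sensor gene, was at 60.7, 33.4 and 51.0 CPM on water and 96.0, 80.6 and 91.6 CPM under DSS (0.89 ± 0.24; adjusted p = 0.117). Srebf1, a factor that drives lipid synthesis, was at 60.7, 60.0 and 58.5 CPM on water and 89.6, 79.8 and 74.7 CPM under DSS (0.45 ± 0.12; adjusted p = 0.114). In both the DSS libraries lay above every water library. The cholesterol enzyme gene Lss was at 26.5, 22.8 and 30.1 CPM on water and 46.2, 45.1 and 42.4 CPM under DSS (0.75 ± 0.24; adjusted p = 0.162), also without overlap. Adipocyte genes, several of which make lipid too, varied beside these: the summed level of 11 was 700.0, 1232 and 189.8 CPM in water replicates A, B and C and 2509.9, 331 and 1961 CPM in DSS replicates A, B and C. They were highest in DSS replicates A and C and lowest in water replicate C, and their part in the lipid values was not tested.

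Protein folding and trafficking genes were also among those that fell. Dnaja1, an HSP40 co-chaperone gene whose heat shock unit is shown above, had 205, 151 and 117 CPM in water replicates A, B and C and 83.5, 75.1 and 103 CPM in DSS replicates A, B and C. Water replicate A was high and replicate C close to the DSS range, which it did not reach. Dnaja1 fell by 0.86 ± 0.17 (adjusted p = 0.0427), and it overlaps Smu1 on the other strand. Of 19 heat shock genes it alone passed, and 18 had a negative difference, as did 8991 of all 18848 tested genes. In this list 9 lay wholly lower and none wholly higher, where 10.1% and 9.3% of all tested genes did, and the median was -0.41. Hsph1, with 3 heat shock units in its window, was at 69.1, 64.2 and 32.3 CPM on water and 30.6, 25.1 and 30.2 CPM under DSS (-0.95 ± 0.21; adjusted p = 0.0697). The main inducible HSP70 gene Hspa1a was at 18.1, 15.0 and 11 CPM on water and 10.7, 9.25 and 10.3 CPM under DSS. Without water replicate A the median of the list was -0.19.

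The ubiquitin receptor gene Ubqln1 (-0.61 ± 0.12), the ubiquitin ligase gene Rnf103 of the endoplasmic reticulum (-0.75 ± 0.13) and the SNARE gene Ykt6 (-0.67 ± 0.13) fell. None of 22 unfolded protein response genes passed (7 lower and 0 higher at an unadjusted p under 0.05, against 8.93% and 6.65% of all tested genes). In this list 7 lay wholly lower, where 10.1% of all tested genes did, and the median was -0.19. Hspa5, which encodes the chaperone BiP, was at 439.6, 251 and 232 CPM on water and 189.8, 140.4 and 194 CPM under DSS (-0.82 ± 0.20; adjusted p = 0.0919), again highest in water replicate A. Edem1, a gene of misfolded protein disposal, was at 129, 128 and 121 CPM on water and 93.0, 80.3 and 99.9 CPM under DSS (-0.47 ± 0.10; adjusted p = 0.0685), with the water libraries close together.

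The remaining genes that fell act mainly in the nucleus or have roles not described here. They were Cdc5l (-0.59 ± 0.10), a splicing factor gene, Rbm45 (-0.63 ± 0.12), an RNA-binding protein gene, Atf1 (-0.52 ± 0.10), a CREB-family factor gene, Etaa1 (-0.88 ± 0.17), an activator of the ATR kinase, Cables1 (-0.84 ± 0.16), a cyclin-dependent kinase partner, and Macrod2 (-0.88 ± 0.16), an ADP-ribose hydrolase. BC031181 (-1.17 ± 0.18), BC005624 (-0.58 ± 0.11) and Lhfpl2 (-0.91 ± 0.17) completed the set. BC031181 had 178, 109 and 123 CPM on water and 62.5, 53.5 and 66.6 CPM under DSS, with water replicate A the highest. Cdc5l, Hccs, Acad11, Macrod2 and Ppp3r1 overlap other expressed genes in the annotation (B230354K17Rik, Arhgap6, Ackr4, Flrt3 and Wdr92), and how such reads were counted is not given in the sources used here, so their values are uncertain.

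Inflammatory genes gave no gene that passed. Of 14 tested cytokine and chemokine genes none passed (0 lower and 2 higher at an unadjusted p under 0.05, against 8.93% and 6.65% of all tested genes). In this list 2 lay wholly higher under DSS, where 9.3% of all tested genes did. The median was 0.31, or 0.69 without water replicate A, and 0.18 and 0.15 when DSS replicate A or C was left out. Cxcl10, an interferon-induced chemokine gene, was at 0.341, 0.924 and 0.476 CPM on water and 1.20, 1.03 and 2.74 CPM under DSS (1.49 ± 0.49; adjusted p = 0.17). Tnf was at 0.341, 1.24 and 1.65 CPM on water and 2.55, 2.90 and 1.39 CPM under DSS (1.09 ± 0.47; adjusted p = 0.281), with overlap. These levels were near 1 CPM, so the precision was low. Of 17 NF-kappa-B feedback genes none passed (2 lower and 1 higher at an unadjusted p under 0.05, against 8.93% and 6.65% of all tested genes). Tnfaip3, which encodes the inhibitor A20, was at 23.3, 33.8 and 38.2 CPM on water and 21.9, 17.2 and 21.8 CPM under DSS (-0.65 ± 0.17; adjusted p = 0.11), lower in each DSS library.

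Of 22 interferon-stimulated genes none passed (0 lower and 5 higher at an unadjusted p under 0.05, against 8.93% and 6.65% of all tested genes). In this list 4 lay wholly higher and none wholly lower, where 9.3% and 10.1% of all tested genes did, and the median was 0.47. Ifit3 was at 6.47, 4.46 and 5.01 CPM on water and 12.2, 8.08 and 13.1 CPM under DSS (1.07 ± 0.41; adjusted p = 0.228), and Zbp1, a nucleic acid sensor gene, at 8.74, 7.60 and 6.38 CPM on water and 13, 11 and 19.9 CPM under DSS (0.95 ± 0.37; adjusted p = 0.239). DSS replicate C was the highest in both. Without it the median of the list was 0.13, and without water replicate A it was 0.74. Genes of stress by oxidants were split: of 19 none passed (2 lower and 5 higher at an unadjusted p under 0.05, against 8.93% and 6.65% of all tested genes). In this list 4 lay wholly higher and 1 wholly lower, where 9.3% and 10.1% of all tested genes did. Srxn1, the sulfiredoxin gene, was at 194, 159 and 172 CPM on water and 111, 105 and 121 CPM under DSS (-0.64 ± 0.14; adjusted p = 0.0708). Nqo1, a quinone reductase gene, lay on the other side, at 35.8, 34.0 and 37.2 CPM on water and 54.4, 45.1 and 56.2 CPM under DSS (0.54 ± 0.15; adjusted p = 0.122), and the metallothionein gene Mt2 was at 379, 261 and 244 CPM on water and 458, 598 and 538 CPM under DSS (0.85 ± 0.26; adjusted p = 0.155).

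**Figure D4:**
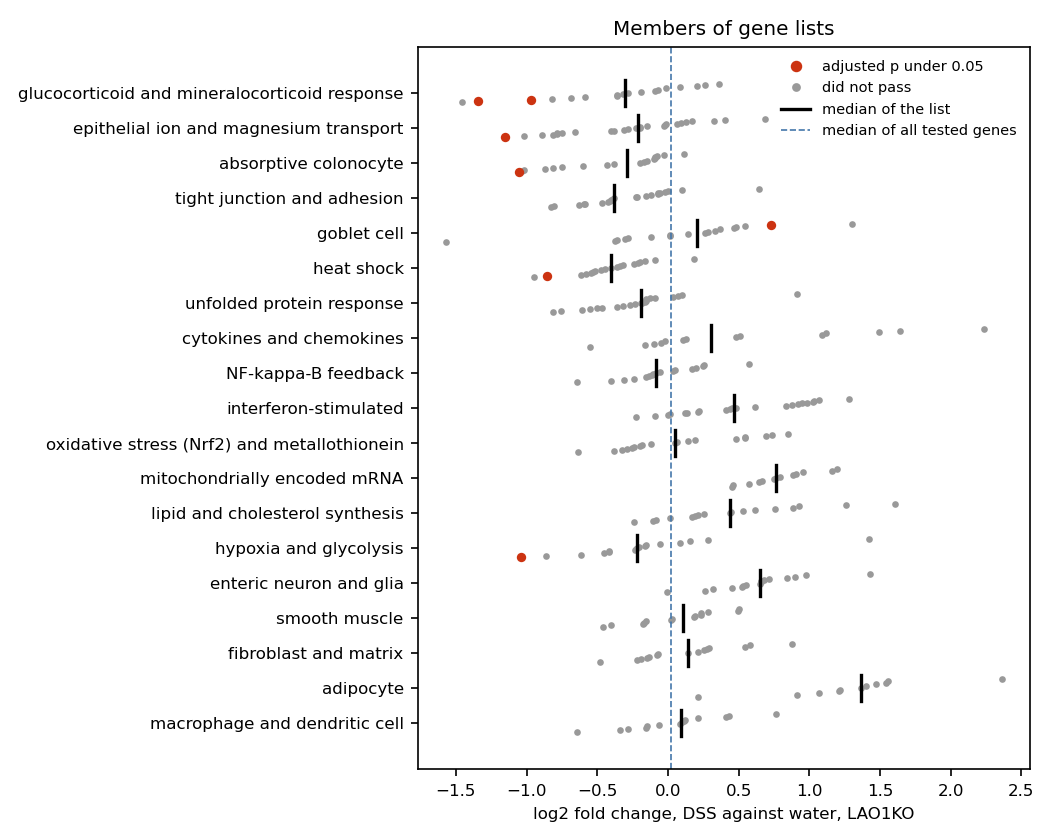
Fitted log2 fold changes of the members of 19 gene lists, 1 point a gene, in red where the adjusted p was under 0.05, with the list's median as a black bar and the median of all tested genes as a dashed line. Junction, colonocyte, steroid response and heat shock genes lie mostly left of the line, mitochondrial mRNA, neuron and adipocyte genes mostly right of it, and red points are few.

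Cells other than epithelium were followed by their markers. Of 16 neuron and glia genes none passed (0 lower and 6 higher at an unadjusted p under 0.05, against 8.93% and 6.65% of all tested genes). A positive difference was found in 15 of them, and in 9856 of all 18848 tested genes. In this list 5 lay wholly higher, where 9.3% of all tested genes did. The median was 0.65, or 0.33 without water replicate A and 0.32 without DSS replicate B. Their summed level was 159, 274 and 240.1 CPM in water replicates A, B and C and 325, 447 and 255 CPM in DSS replicates A, B and C, lowest in water replicate A and highest in DSS replicate B. Tubb3, a neuronal tubulin gene, was at 11.4, 18.1 and 18.4 CPM on water and 27.4, 39.2 and 19.2 CPM under DSS (0.84 ± 0.32; adjusted p = 0.224). Of 14 smooth muscle genes and 15 fibroblast genes, 1 each lay wholly higher, which is near the 9.3% of all tested genes that did. None of the endothelial (12), macrophage (14), T and NK cell (12 tested) or neutrophil and mast cell genes (5 tested) passed.

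Jchain and Igha, antibody genes of plasma cells, were low under DSS without passing. Jchain, the joining chain of secreted antibodies, was at 4.91, 12.0 and 10.1 CPM on water and 1.48, 0.991 and 1.06 CPM under DSS, and Igha, the constant region of IgA, at 13.5, 29.1 and 31.9 CPM on water and 5.26, 2.64 and 3.02 CPM under DSS. Every DSS library was below every water library in both. The log2 differences were -2.92 ± 0.94 (adjusted p = 0.177) and -2.75 ± 0.98 (adjusted p = 0.208), and neither passed. Of 13 tested B cell and plasma cell genes 5 were negative and 8 positive. In this list 3 lay wholly lower and none wholly higher, where 10.1% and 9.3% of all tested genes did. The median was 0.45 and its sign turned with single libraries: it was -0.72 without DSS replicate B, -0.01 without water replicate B, 0.03 without water replicate A, 0.96 without DSS replicate C and 1.85 without water replicate C. Small intestine genes, several of which the colon also expresses, had a summed level of 3360.1, 1993 and 1965 CPM in water replicates A, B and C and 1386, 1287 and 1771 CPM in DSS replicates A, B and C. The DSS libraries were the lower ones, and in water replicate A most of the sum was Fabp2, a fatty acid binding protein gene. Apoa1, an apolipoprotein gene, was at 10.8, 6.23 and 4.76 CPM on water and 149, 13.7 and 58.7 CPM under DSS (3.35 ± 1.04; adjusted p = 0.17), highest in DSS replicate A. Of 11 tested genes of that list 5 were positive and 6 negative. The DSS libraries lay wholly higher in 4 and wholly lower in 1, the bile acid transporter gene Slc10a2, against 9.3% and 10.1% of all tested genes. Their part in other values was not tested.

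Over all tested genes, list members included, those that missed the threshold were taken where the groups did not overlap, the unadjusted p was under 0.01 and the group with more had a mean of 5 CPM or above: 549 were lower under DSS and 176 higher. The 10 largest on each side are given as values. Col6a4, a collagen VI chain gene, was at 33.5, 27.0 and 27.3 CPM on water and 6.85, 6.97 and 14.3 CPM under DSS (-1.65 ± 0.35; adjusted p = 0.0626). Adamdec1, a secreted protease gene of gut macrophages and stroma, was at 307, 253 and 267 CPM on water and 104, 79.4 and 166 CPM under DSS (-1.24 ± 0.37; adjusted p = 0.141). Bmp5, a growth factor gene of the stroma, was at 18.6, 9.32 and 10.3 CPM on water and 4.22, 3.89 and 6.79 CPM under DSS, and F2r, the thrombin receptor gene, at 21.2, 13.1 and 11.9 CPM on water and 6.04, 4.85 and 9.16 CPM under DSS. In each of these the 3 DSS libraries were below the 3 water libraries. The gut hormone gene Cck was at 5.19, 10.5 and 11.4 CPM on water and 3.27, 2.68 and 3.72 CPM under DSS. Abhd3, Emid1 and Cyp26b1, with Jchain and Zbtb16 given above, were the other lower genes, at log2 differences of -1.23 ± 0.38, -1.18 ± 0.35 and -1.18 ± 0.30 for these 3.

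On the higher side structural RNA stood first. Lars2, a gene whose locus holds sequence close to ribosomal RNA, was at 290.3, 258 and 406 CPM on water and 846, 2525 and 9374 CPM under DSS (3.74 ± 0.85; adjusted p = 0.0841). Rn18s-rs5 was at 4389, 4713 and 7927 CPM on water and 9324, 31395 and 58900.0 CPM under DSS (2.55 ± 0.68; adjusted p = 0.114), and the small nuclear RNA Rn7sk at 5.88, 7.28 and 11.4 CPM on water and 20.6, 72.6 and 41.7 CPM under DSS. Rpph1, the RNase P RNA, was at 2.19, 0.897 and 1.17 CPM on water and 4.03, 15.2 and 8.67 CPM under DSS. All 4 were highest in DSS replicates B and C. Their part in the other values was measured only by leaving 8 such genes out, which gave 80 genes that passed, all 36 named genes among them. Tspan4 (1.62 ± 0.33; adjusted p = 0.0506), Lgals2 (1.73 ± 0.52; adjusted p = 0.141), Serac1 (2.05 ± 0.58; adjusted p = 0.132) and Pcdhga4 (2.12 ± 0.70; adjusted p = 0.177) were the other genes beside Dbp and Apoa1.

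Mitochondrially encoded mRNA was a larger share of the counts under DSS. The 13 mRNAs made up 8.67, 14.4 and 13.4% of counts in water replicates A, B and C and 18.7, 23.2 and 15.7% in DSS replicates A, B and C. The lowest DSS library, replicate C, was above the highest water library, replicate B. The difference of 7.06 percentage points had a 2-sided exact permutation p of 0.1, the smallest possible. None of the 13 passed singly (0 lower and 6 higher at an unadjusted p under 0.05, against 8.93% and 6.65% of all tested genes). Of them 12 lay wholly higher, where 9.3% of all tested genes did, and the median log2 difference was 0.77. The 13 make up the share given above, so these 12 are not separate observations beside it. ND1, a subunit of respiratory complex I, was at 7354, 9178 and 8922 CPM on water and 15688, 17848 and 14170.0 CPM under DSS (0.91 ± 0.31; adjusted p = 0.185). In WT the share was 7.65, 6.89 and 9.08% on water and 26.9, 26.1 and 44.9% under DSS in replicates A, B and C, a wider gap than in LAO1KO. The LAO1KO difference minus the WT difference was -17.7 points (permutation of genotype labels within treatment over 400 arrangements, p = 0.01), and minus the DKO difference it was 3.25 points (permutation p = 0.515). Without WT DSS replicate C, the highest library, the first was -11.6 points (permutation p = 0.025). The permutation assumes no genotype difference under either treatment, and the water means were 12.2% in LAO1KO and 7.87% in WT. Its p therefore does not measure the difference of responses alone.

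The 36 genes that fell in LAO1KO, the unnamed gene model included, were then read in the other genotypes. Libraries of those genotypes did not enter the LAO1KO difference, but they helped to set the spread by which these genes passed. All 36 had a negative log2 difference under DSS in DKO and 33 in WT, where 47.7% and 48.1% of all tested genes were negative. Of the 36, 17 passed as lower in WT (6.59% of all tested genes did) while none of the 36 was among the 3 genes that passed in DKO (0.0159%). Those 3 rose, and Fer1l6 was 1 of them. Medians of the 36 were -0.87 in LAO1KO, -0.45 in WT and -0.50 in DKO, and the first is a value on which the genes were chosen. The fit shares its estimate of the spread between genotypes, and with the LAO1KO libraries alone no gene passed. The counts in WT and DKO are therefore not independent of how the genes were chosen.

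**Figure D5:**
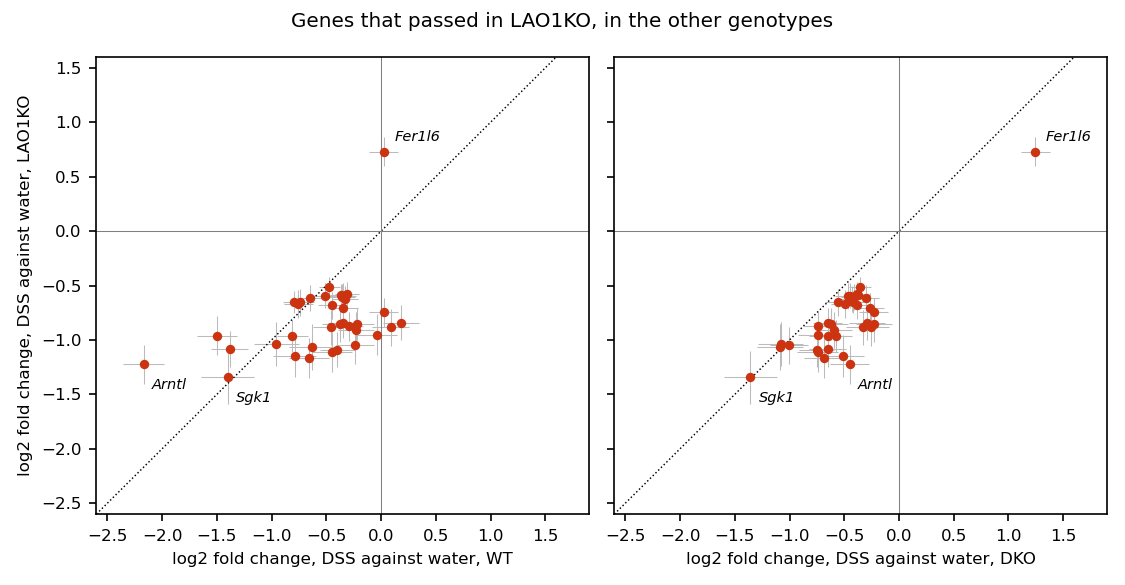
Log2 fold change under DSS of the 36 named genes in LAO1KO (y axis) against WT (left) and DKO (right), with bars of 1 SE and a dotted line of equal change. Most points lie below 0 in all 3 genotypes, Arntl is left of the line in WT, and Fer1l6 is near 0 in WT and to the right of the line in DKO.

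Sgk1 was lower by nearly the same amount in each genotype: the log2 difference was -1.34 ± 0.24 in LAO1KO, -1.40 ± 0.24 in WT and -1.36 ± 0.24 in DKO, and the difference between LAO1KO and WT was 0.06 ± 0.34 (SE). Gbe1 was at -1.04 ± 0.20, -0.96 ± 0.20 and -1.08 ± 0.20 in the same order. Arntl was lower by more in WT (-2.17 ± 0.19) and by less in DKO (-0.45 ± 0.18), and LAO1KO lay between them. Its difference of responses was 0.95 ± 0.25 against WT (adjusted p = 0.146) and -0.77 ± 0.25 against DKO (adjusted p = 1; unadjusted p = 0.00673), neither of which passed. Fer1l6 was at 42.2, 47.5 and 48.9 CPM in WT water replicates A, B and C and 52.1, 45.9 and 43.0 CPM in WT DSS replicates A, B and C, with overlap. In DKO it was at 33.8, 28.5 and 27.4 CPM on water and 75.8, 73.5 and 63.0 CPM under DSS with no overlap, and it rose by 1.24 ± 0.13 (adjusted p = 0.000584). Slc6a14 was at 430.4, 415 and 494 CPM in WT on water and 390.4, 415 and 499 CPM in WT under DSS, and at 626, 505 and 763 CPM on water and 386, 314 and 434 CPM under DSS in DKO. In both knockouts, and not in WT, the DSS libraries of Slc6a14 lay below all water libraries, but its difference of responses between LAO1KO and WT (-0.91 ± 0.26; adjusted p = 0.146) did not pass.

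No gene passed for a difference in the DSS response between LAO1KO and WT by edgeR's test, and 3005 genes (15.9%) had an unadjusted p under 0.05. DESeq2 called 441, limma with library weights 2324 and edgeR with the replicate block 1. Leaving out WT libraries gave 47 genes (water replicate C) and 10 genes (DSS replicate B), and leaving out LAO1KO libraries gave 3 (water A), 2 (water B) and 1 (DSS B). Itpkb, an inositol phosphate kinase gene, came nearest. It was at 15.6, 25.1 and 17.1 CPM in LAO1KO on water and 26.9, 25.4 and 26.1 CPM under DSS, with each LAO1KO DSS library above each of its water libraries. In WT it was at 21.6, 26.1 and 20.9 CPM on water and 3.65, 8.04 and 3.29 CPM under DSS, far lower, and the difference of responses was 2.62 ± 0.38 (adjusted p = 0.0561). The claudin gene Cldn8 was at 31.9, 34.5 and 31.0 CPM and 26.6, 14.5 and 21.9 CPM in LAO1KO, and at 43.0, 49.9 and 47.6 CPM and 10.7, 12.0 and 7.46 CPM in WT (1.58 ± 0.28; adjusted p = 0.126). Ndufs5-ps, a pseudogene that may share reads with its parent gene and is therefore uncertain, was the third (-1.65 ± 0.29; adjusted p = 0.126).

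Against DKO no gene passed either, and 268 genes (1.42%) had an unadjusted p under 0.05. DESeq2 called 0 and limma with library weights 4, and the count was 1 without LAO1KO water replicate A. Celf5, an RNA-binding protein gene, was among the smallest p-values. It was at 6.64, 5.65 and 7.68 CPM on water and 10.9, 16.6 and 12.7 CPM under DSS in LAO1KO, where the groups did not overlap, and at 10.2, 9.56 and 12.4 CPM on water and 11.1, 8.25 and 9.70 CPM under DSS in DKO, where they did. The difference of responses was 1.15 ± 0.29 (unadjusted p = 0.00107). The other genes of smallest p were Gm38969, at 0 in 4 of the 6 LAO1KO libraries, and 1700030C10Rik (-1.31 ± 0.36). A p that misses the threshold does not show that the responses were alike.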

How the data were processed

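Colon RNA of 18 germ-free mice, 3 in each of 6 groups, was sequenced as paired reads from a stranded mRNA kit. The authors deposited whole-number counts per gene for each library. Per the submitters' processing notes, the tools were HISAT2 2.1.0 and StringTie 2.1.3b, Trimmomatic 0.38 and FastQC 0.11.7, and R 4.3.2 with DESeq2 1.42.1. The notes name build GRCm38 (mm10). How strand, overlapping genes and reads with several matches were counted is not given in the sources used here. Libraries were matched to groups through their labelled names.

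Genes were kept with edgeR's filterByExpr (18848 of 45777), scaled by TMM, and fitted with edgeR 4.0.16 (quasi-likelihood test, robust, R 4.3.3) over all 18 libraries with 1 mean per group. DSS was compared with water within a genotype, and these differences between genotypes. Benjamini-Hochberg adjusted p under 0.05 over all tested genes counted as passing. The SE was derived from the F statistic. CPM values use TMM library sizes and are not per length, so levels are not compared between genes. Single values were tested by exact permutation over libraries. The scripts were tested on simulated data. Alternatives were other scaling, filters and gene removals, a replicate block, fewer libraries in the fit, DESeq2 1.42.0, limma 3.58.1, and leaving out each library. Removing structural RNA genes, and leaving out WT or DKO libraries for the count in LAO1KO or any library for the clock and mitochondrial differences between genotypes, were chosen after seeing the data.

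The gene lists and the comparison were chosen with earlier results of these data known. Named genes were those that passed and had a proper symbol, the 10 largest differences per direction among genes that missed the threshold with an unadjusted p under 0.01, at least 5 CPM and no overlap, up to 4 members of smallest p per list, Lao1 and Il4i1, and the 3 smallest p for each difference of response. The clock genes Clock, Bhlhe41, Ciart, Per1, Per2, Per3, Tef, Cry1 and Nfil3, and Nr3c1, Ano1, Car1, Guca2a, Muc2, Clca1, Muc4, Spdef, Galnt12, Hspa1a, Fabp2 and Slc10a2, lie outside that rule and were chosen after their values were seen.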

Additional observations from a re-analysis of the deposited data

Results flagged for a closer look

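The share of counts in the 13 mitochondrially encoded mRNAs had a smaller gap between DSS and water in LAO1KO than in WT colon. It was 7.06 percentage points higher under DSS in LAO1KO, and that difference minus the one in WT was -17.7 points (permutation of genotype labels within treatment, p = 0.01). The WT libraries held 7.65%, 6.89% and 9.08% on water and 26.9%, 26.1% and 44.9% under DSS, against 8.67%, 14.4% and 13.4% and 18.7%, 23.2% and 15.7% in LAO1KO, so WT replicate C under DSS was the highest library of these 12. Without that library the difference between genotypes was -11.6 points (permutation p = 0.025), and leaving out any other of the 12 gave -21.0 to -16.0 points, each with a permutation p under 0.05. The permutation assumes no genotype difference under either treatment, so its p does not measure the difference of responses alone. On water the mean share was 12.2% in LAO1KO and 7.87% in WT. The SD was 10.6 points in WT under DSS and 1.11 points in WT on water. No gene passed edgeR's test for this difference of responses. The cause was not tested.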

How the results depend on the processing

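The number of genes that passed for DSS in LAO1KO, 37, depended on the processing. It was 70 with RLE size factors, 60 with no low-count filter, 59 without the 13 mitochondrial mRNAs, 80 without 8 structural RNA genes, 674 with DESeq2, 4990 with limma and library weights, and 0 with the LAO1KO libraries alone. Leaving out 1 library at a time gave 1 to 346. For the difference between LAO1KO and WT, 0 in the edgeR fit, the count was 2 with no filter, 441 with DESeq2, 2324 with limma, and 0 to 47 leaving out 1 library. For the difference between LAO1KO and DKO it was 1 with only those genotypes, 4 with limma and 0 to 1 leaving out 1 library. The causes were not tested. Of the 36 named genes, all passed with RLE, DESeq2, limma and both removals, 35 without the filter, and 33, 7, 4, 2, 0 and 36 without water replicates A, B and C and DSS replicates A, B and C, with no change of sign.

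The replicate block, by the letter of each library within its genotype, gave 123 genes for DSS in LAO1KO, with 34 of the 36 named genes still passing, and 1 for the difference between LAO1KO and WT. Same-letter water and DSS libraries had correlations of 0.0837, 0.268 and -0.329 in their deviations from the group means in LAO1KO, so the letters were not taken to pair these. In WT they were 0.285, 0.280 and 0.392 and in DKO 0.400, 0.373 and 0.279, all above those of different letters, a hint from the data that the letters pair those libraries.

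The clock index difference was 1.31 to 2.01 leaving out 1 library and 1.76 with a prior count of 5. Against WT it was -1.62 to -0.885 and against DKO 0.448 to 1.15. The mitochondrial difference was 5.07 to 8.80 points, -21.0 to -11.6 against WT and 0.626 to 5.84 against DKO. The leave-outs for differences between genotypes were chosen after seeing the data. With 3 libraries a group, the exact test of DSS against water on a single value cannot go below 0.1, and genes near 1 CPM were measured imprecisely.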
